A study of Homo sapiens with 16 samples.

Results

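The genes described here encode the proteins of the cytosolic ribosome. They were taken by symbol, as RPL or RPS followed by a number, RPLP0 to RPLP2, RPSA and FAU, and 86 of the 58884 genes in the deposited table met this rule. Of these, 46 belong to the large subunit and 32 to the small subunit. The other 8 are paralogs whose symbols end in L or L1, namely RPL3L, RPL7L1, RPL10L, RPL22L1, RPL26L1, RPL36AL, RPL39L and RPS27L, and they were kept apart. RACK1 encodes a ribosomal protein too but falls outside the symbol rule. The RNA came from wild-type 293T cells, a human embryonic kidney line that carries the SV40 large T antigen. The cells had received a pool of scramble siRNA, of siRNA against SETD2 or of siRNA against hnRNP L for 72 h, and 2 libraries were sequenced for each siRNA. The libraries are numbered 1 and 2 for scramble and hnRNP L siRNA, and 2 and 3 for SETD2 siRNA. SETD2 is the methyltransferase that trimethylates lysine 36 of histone H3 and hnRNP L is an RNA-binding splicing factor. The comparisons ask how transcript levels differ once either protein is depleted. All 3 groups come from 1 cell line, and each depletion rests on a single siRNA pool.

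A ribosome carries 1 copy of nearly every ribosomal protein, and each of these proteins is usually made from a single active gene accompanied by many processed pseudogenes. Most ribosomal protein mRNAs start with a C followed by a run of pyrimidines, the terminal oligopyrimidine (TOP) motif, through which the mTOR pathway and LARP1 set their translation together. Free RPL5 and RPL11 bind MDM2 when ribosome assembly is disturbed. These are background facts, and neither translation nor protein was measured here.

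The start sites of 69 members were found in RefSeq's GRCh38.p14 promoter table, with 85 annotated starts among them. The following 30-base windows run from 10 bases before to 20 bases from the annotated start. Capitals mark a pyrimidine run of at least 5 bases that begins with C at the first transcribed base. The set shows members that the results below turn on, abundant genes and the 5 paralogs with a level above 0.5 TPM and a start in the table.

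RPS25 (chr11:119018324-119018353, minus strand): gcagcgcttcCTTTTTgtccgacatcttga
RPS27 (chr1:153990752-153990781, plus strand): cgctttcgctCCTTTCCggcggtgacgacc
RPS15 (chr19:1438386-1438415, plus strand): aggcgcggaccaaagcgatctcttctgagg
RPL11 (chr1:23691796-23691825, plus strand): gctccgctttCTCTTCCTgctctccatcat
RPLP0 (chr12:120201092-120201121, minus strand): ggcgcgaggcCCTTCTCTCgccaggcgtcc
RPL36A (chrX:101391001-101391030, plus strand): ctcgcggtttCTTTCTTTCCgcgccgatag
RPL22 (chr1:6199576-6199605, minus strand): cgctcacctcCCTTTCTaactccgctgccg
RPL22L1 (chr3:170870176-170870205, minus strand): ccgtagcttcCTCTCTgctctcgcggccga
RPS27L (chr15:63157458-63157487, minus strand): gatgccgagcgcagatcgcttgcagcttgc
RPL36AL (chr14:49620607-49620636, minus strand): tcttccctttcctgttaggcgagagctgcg
RPL26L1 (chr5:172958719-172958748, plus strand): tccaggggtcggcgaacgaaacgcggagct
RPL7L1 (chr6:42879606-42879635, plus strand): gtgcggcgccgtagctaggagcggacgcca

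Such a run began at an annotated start of 47 of 63 large and small subunit genes in the table (74.6%), against 5.14% of all 27305 genes in it. The large subunit had it in 28 of 38 genes and the small subunit in 19 of 25. RPL22L1 was the 1 paralog of 6 with the run, and RPL22, after which it is named, carries it as well. When the run was allowed to begin up to 5 bases either side of the start, 84.1% of large and small subunit genes and 23.6% of all genes had it. RPS15 has no such run at its single annotated start. The first base was a C at 66.7% of 78 starts of large and small subunit genes and at 14.7% of 35116 starts of all genes. The 6 letters CCGGAA, the core that ETS factors such as GABP bind, or their reverse complement TTCCGG, occurred between 250 bases before and 50 bases after a start in 36 of 63 large and small subunit genes (57.1%) and in 20.1% of all genes. The letters TATA occurred between 40 and 21 bases before the start in 11 of 63 (17.5%), against 7.40% of all genes. These are matches of letters at annotated starts, and no start site or bound factor was measured.

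**Figure D1:**
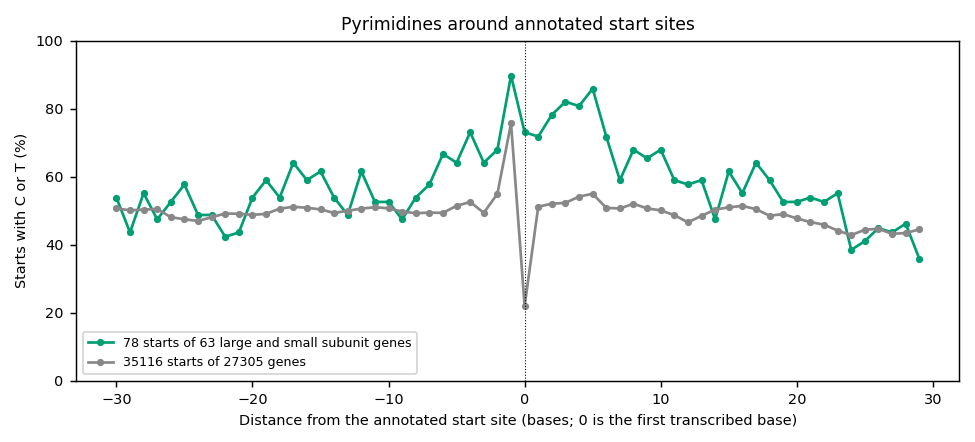
Share of annotated start sites with C or T (vertical axis, %) at each distance from the first transcribed base (horizontal axis, bases), for 78 starts of 63 large and small subunit genes (green) and 35116 starts of 27305 genes (grey). At the first transcribed base the share was 73.1% for the ribosomal protein genes and 21.9% for all genes, and it stayed above 70% over the next 6 bases for the ribosomal protein genes alone.

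The siRNA targets were measured first. SETD2 was at 13.4 and 11.7 TPM (transcripts of a gene, per length, relative to all transcripts of the library) with scramble siRNA, at 4.24 and 4.91 with SETD2 siRNA and at 10.8 and 10.2 with hnRNP L siRNA. HNRNPL was at 341 and 457 TPM with scramble siRNA, at 395 and 413 with SETD2 siRNA and at 25.04 and 28.81 with hnRNP L siRNA. Each target was lowest in both libraries of its own siRNA. VIM, KRT8, KRT18, NEFL, NEFM, PAX2 and LIN28B, which mark the line, were all detected, and PTPRC, CD3E and CDH5, markers of blood and endothelium, were at or below 0.03 TPM. ALB reached at most 0.40 TPM and COL1A1 lay between 2.83 and 5.17 TPM. Among the markers of the line, the neurofilament genes NEFM and NEFL were called higher after hnRNP L depletion (log2 fold changes 1.21 and 0.82, limma adjusted p = 0.00166 and 0.00515). Without scramble replicate 1 these fold changes were 1.28 and 0.76.

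1 library stood apart. In scramble replicate 1 the 37 mitochondrially encoded genes took 17.5% of all TPM, against 6.70% to 10.9% in the other 5 libraries. The ribosomal protein genes took 23.4% of TPM in that library, and 27.9% in scramble replicate 2. Their share was 29.3% and 27.5% with SETD2 siRNA, and 28.3% and 27.9% with hnRNP L siRNA. The group means were 25.7% ± 3.16 (SD, n = 2), 28.4% ± 1.32 and 28.1% ± 0.248, so the gap between the scramble libraries was wider than the gap between any of these means. Of the 78 large and small subunit genes, 71 had their lowest value of the 6 libraries in scramble replicate 1, against 22.4% of all tested genes. With the mitochondrially encoded genes left out of the total, 35 of the 78 still had their lowest value there, against 9.76% of tested genes. On that total the 86 members took 28.4% and 30.3% with scramble siRNA, 31.4% and 29.4% with SETD2 siRNA, and 31.7% and 30.6% with hnRNP L siRNA. The part that this library's makeup plays in the results below was not tested. Values without it are given beside the main differences from scramble siRNA.

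**Figure D2:**
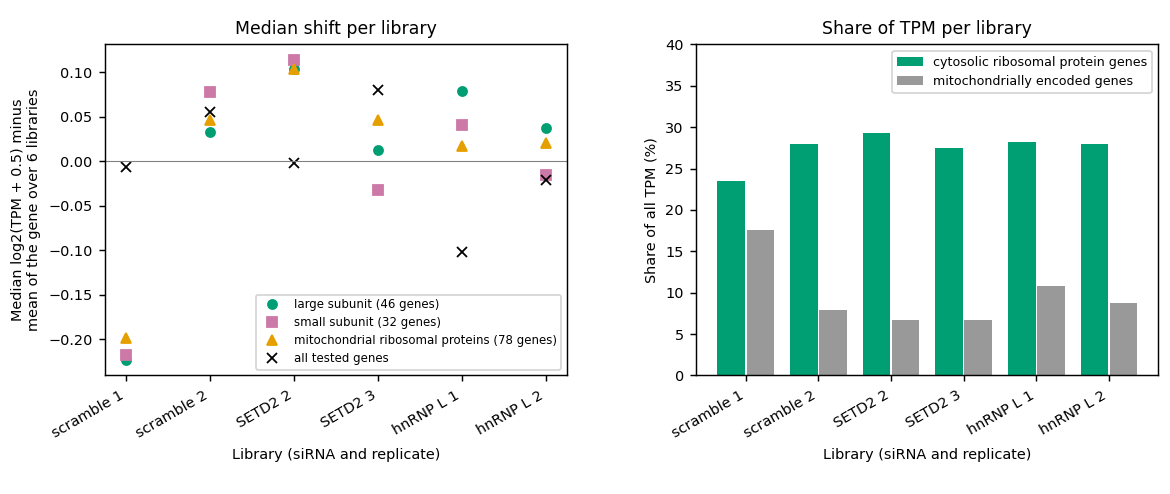
Left, median over the genes of each family of log2(TPM + 0.5) minus the gene's mean over 6 libraries (vertical axis), for each library (horizontal axis). Right, share of all TPM (vertical axis, %) taken by the 86 ribosomal protein genes and by the 37 mitochondrially encoded genes. Scramble replicate 1 has the lowest medians of all 3 ribosomal protein families and the highest mitochondrially encoded share, 17.5%.

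The proportion of large to small subunit transcripts varied little. Summed TPM of the large subunit over that of the small subunit was 1.49 and 1.48 with scramble siRNA, 1.49 and 1.53 with SETD2 siRNA, and 1.52 and 1.53 with hnRNP L siRNA. The scramble libraries had the lowest ratios, and the SETD2 libraries reached from just above them into the range of the hnRNP L libraries. With 2 libraries a group, the smallest two-sided p of an exact permutation test is 0.333, so no test of these sums can pass a threshold of 0.05. In bulk RNA fewer cells of a type and less RNA per cell cannot be told apart, and TPM, which sum to the same total in every library, hold no information on total RNA per cell.

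Levels differed widely between genes whose proteins enter the ribosome in mostly equal number. Mean TPM over the 6 libraries, a level per transcript length, ran 14.5-fold from RPS26 (859 TPM) to RPS2 (12441 TPM), with a median of 2942 TPM over the 78 large and small subunit genes. The large subunit had a median of 3123 TPM and ran from RPL22 (1020 TPM) to RPL36A (12111 TPM), and the small subunit had a median of 2607 TPM. Other abundant transcripts were those of RPL26 (7427 TPM), RPLP0 of the ribosomal stalk (6423 TPM), RPL8 (5838 TPM) and RPL39 (5552 TPM). RPS2 and RPL36A did not differ beyond their spread over libraries, RPS2 ranging from 10237 to 14070 TPM and RPL36A from 10697 to 12844 TPM. Of the 78 genes, 71 were above 1000 TPM in every library. The order of the genes hardly differed between libraries, with Spearman's rho of the 78 levels between 0.978 and 0.996 over the 15 pairs of libraries, a description across genes that are not independent. The coefficient of variation over the 6 libraries had a median of 9.10%, and was lowest for RPS27A (5.52%), which is made as a fusion with ubiquitin, and highest for RPS25 (17.3%).

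RPS2 was at 10237 and 13314 TPM with scramble siRNA, at 11639 and 11637 TPM with SETD2 siRNA, and at 14070 and 13749 TPM with hnRNP L siRNA. Its protein lies at the entry of the mRNA channel on the small subunit. RPS26, the lowest of the small subunit, was at 745 and 855 TPM, at 888 and 834 TPM, and at 969 and 863 TPM in the same order. The groups of RPS26 overlap only between SETD2 siRNA and the other siRNAs. The counting of RPS2 reads may be shared with its processed pseudogene RPS2P5, and RPL36A overlaps the readthrough gene RPL36A-HNRNPH2 on its strand and GLA on the other.

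The paralogs were expressed far below the genes they are named after. RPL36AL was highest with a mean of 455 TPM, followed by RPL22L1 (202 TPM), RPL26L1 (141 TPM), RPL7L1 (117 TPM), RPL39L (43.3 TPM) and RPS27L (40.7 TPM). The lowest large or small subunit gene, RPS26, was 1.89 times the highest paralog. RPL3L, known from heart and skeletal muscle, had a mean of 0.197 TPM, and RPL10L, known from testis, had 0.0133 TPM. These 2 were below the mean of 0.5 TPM required for testing, which left 84 members tested. RPL36AL held 3.41% to 3.97% of the TPM of RPL36A over the 6 libraries, RPL7L1 held 3.94% to 4.50% of RPL7, RPL26L1 held 1.70% to 2.23% of RPL26 and RPS27L held 0.803% to 1.03% of RPS27. None of the 75-base windows of a paralog's canonical GENCODE transcript occurred in a transcript of the gene it is named after.

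**Figure D3:**
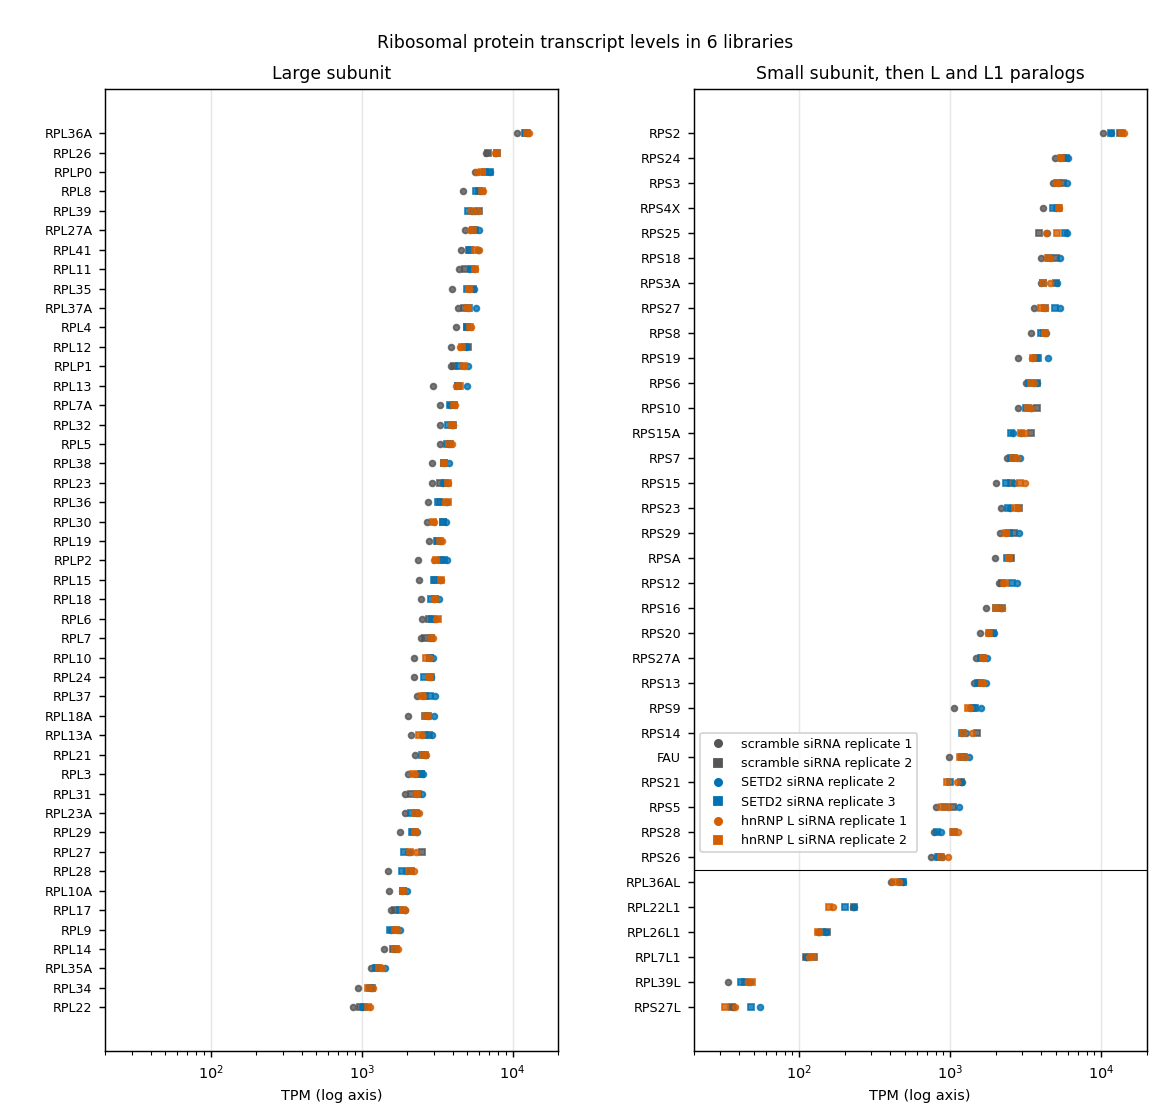
TPM (horizontal log axis) of the 84 ribosomal protein genes with a mean of at least 0.5 TPM, 1 row per gene, without 2 genes not reported here, and 1 point per library, sorted by mean within the large subunit (left), the small subunit and, under the line, the paralogs (right). Colors mark the siRNA and shapes the library. The gene order is similar between libraries (Spearman's rho 0.978 to 0.996 over the large and small subunit genes), and scramble replicate 1 (grey circles) lies at the left edge for most genes.

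After SETD2 depletion, 0 of the 84 tested members were called higher and 0 lower at an adjusted p under 0.05 (limma, Benjamini-Hochberg over 16300 genes) and a fold change above 1.5. Of all tested genes 0.0552% were called higher and 0.0491% lower. Dropping the fold change left 0 members, and an unadjusted p under 0.05 was reached by 5 members that were higher (background 6.76%) and 1 that was lower (background 6.36%). The members had a median log2 fold change of 0.15, beside 0.01 for all tested genes. A positive value was found for 75 of the 84 members and for 8569 of all 16300 tested genes. Both SETD2 libraries were above both scramble libraries for 35 members (41.7%, background 22.9%), and both were below for 2 (2.38%, background 20.6%). By class the median was 0.17 for the large subunit, 0.12 for the small subunit and 0.13 for the paralogs. Without scramble replicate 1 the median of the members was 0.02, beside -0.02 for all genes, and without scramble replicate 2 it was 0.28, beside 0.05. The interval for a single member reached at most from -0.58 to 0.82 on the log2 scale.

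RPS25, a small subunit protein that certain viral internal ribosome entry sites need, had the largest difference after SETD2 depletion. It was at 4395 and 3870 TPM with scramble siRNA, at 5936 and 5793 TPM with SETD2 siRNA, and at 4297 and 5136 TPM with hnRNP L siRNA. Both SETD2 libraries lay above the other 4. The log2 fold change against scramble was 0.51 (SE 0.138, limma adjusted p = 0.220, 95% interval 0.19 to 0.82), which did not pass, and it was 0.60 without scramble replicate 1. RPS25 lies on chromosome 11 from 119015712 to 119018691 (hg38, minus strand) and overlaps CENATAC on the other strand. The strand setting of the counting was not given in the sources used here, so reads of overlapping genes may be mixed.

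RPS27, also named metallopanstimulin, was at 3597 and 4223 TPM with scramble siRNA, at 5305 and 4950 TPM with SETD2 siRNA, and at 4222 and 3998 TPM with hnRNP L siRNA. Its difference after SETD2 depletion was 0.39 on the log2 scale (SE 0.130, limma adjusted p = 0.266), and 0.28 without scramble replicate 1. The share of RPS27 in the TPM of the 78 large and small subunit genes does not depend on the library's total. It was 1.54% and 1.52% with scramble, 1.82% and 1.81% with SETD2 and 1.499% and 1.437% with hnRNP L siRNA. The SETD2 libraries were above the other 4 in this share as well. RPS27 starts at a TOP run in the window printed above, as does RPS25.

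RPS15A was the member with the lowest value after SETD2 depletion. It was at 2923 and 3431 TPM with scramble siRNA, at 2602 and 2532 TPM with SETD2 siRNA, and at 3144 and 2943 TPM with hnRNP L siRNA. The log2 fold change was -0.30 (SE 0.124, limma adjusted p = 0.351), and -0.42 without scramble replicate 1. The share of RPS15A in the TPM of the 78 large and small subunit genes was 1.25% and 1.23% with scramble siRNA. It was 0.891% and 0.925% with SETD2 siRNA, and 1.12% and 1.06% with hnRNP L siRNA. The order of the groups in this share was scramble, hnRNP L and SETD2, with no overlap. RPS12 (log2 fold change 0.30, limma adjusted p = 0.310) and RPL31 (0.26, limma adjusted p = 0.378) completed the large and small subunit genes with an unadjusted p under 0.05. Their log2 fold changes without scramble replicate 1 were 0.26 for RPS12 and 0.19 for RPL31. RPS12 and RPL31 are named for that p, after their values were seen.

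After hnRNP L depletion, 0 of 84 members were called higher and 0 lower, where 1.75% of all tested genes were called higher and 5.01% lower. At an adjusted p under 0.05 without the fold change, 1 member was lower, the paralog RPL22L1 (background 8.48%), and 0 were higher (background 2.72%). An unadjusted p under 0.05 was reached by 4 members that were higher (background 8.12%) and 1 that was lower (background 20.3%). The median log2 fold change was 0.13 for the members and -0.08 for all tested genes, with 0.15 for the large subunit, 0.10 for the small subunit and -0.02 for the paralogs. Both hnRNP L libraries were above both scramble libraries for 32 members (38.1%, background 18.8%) and below for 2 (2.38%, background 37.8%). Without scramble replicate 1 the median of the members was 0.00 at 2 decimals, beside -0.11 for all genes. Without scramble replicate 2 it was 0.26, beside -0.05, and 15 members then had an adjusted p under 0.05 on the higher side (background 2.6% of all tested genes in that fit), 0 of them above 1.5-fold. This count was 0 without scramble replicate 1. Both depletions were set against the same scramble libraries, so their medians share whatever those libraries carry.

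RPL22L1 is the paralog of RPL22, an RNA-binding protein of the large subunit that can be absent from the ribosome without stopping translation. RPL22L1 was at 227 and 229 TPM with scramble siRNA, at 230 and 202 TPM with SETD2 siRNA, and at 166 and 158 TPM with hnRNP L siRNA. Both hnRNP L libraries were below the other 4, and the scramble and SETD2 groups overlapped. The group means were 228 ± 1.92 (SD, n = 2), 216 ± 20.4 and 162 ± 6.31 TPM. After hnRNP L depletion the log2 fold change was -0.49 (SE 0.102, limma adjusted p = 0.0205, 95% interval -0.72 to -0.26), a level 0.711 times that of scramble and so short of the 1.5-fold limit. Over the 21 alternatives the adjusted p ran from 0.00723 to 0.142 and was under 0.05 in 12. Among the settings that lost it were the omission of either scramble library (0.0671 without replicate 1 and 0.0514 without replicate 2), that of either hnRNP L library (0.135 and 0.142) and median-ratio scaling (0.0634). The log2 fold change stayed between -0.63 and -0.39. RPL22L1 lies on chromosome 3 from 170864875 to 170870208 (hg38, minus strand), and no annotated gene overlaps it.

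RPL22 itself was at 876 and 970 TPM with scramble siRNA, at 1006 and 1030 TPM with SETD2 siRNA, and at 1135 and 1101 TPM with hnRNP L siRNA. The difference after hnRNP L depletion was 0.28 on the log2 scale (SE 0.104, limma adjusted p = 0.120), in the direction opposite to RPL22L1, and 0.20 without scramble replicate 1. The ratio of both genes within a library does not depend on how the library was scaled. RPL22L1 held 25.9% and 23.6% of the TPM of RPL22 with scramble siRNA, 22.9% and 19.6% with SETD2 siRNA, and 14.7% and 14.3% with hnRNP L siRNA. With the pseudogenes of RPL22 added to RPL22, the ratio was 12.5% and 11.2%, 10.6% and 9.14%, and 7.32% and 6.61%. In both forms the 2 hnRNP L libraries were the lowest, the SETD2 libraries came next and the scramble libraries were the highest, with no overlap between groups.

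RPS15 had the largest positive value after hnRNP L depletion. It was at 2004 and 2514 TPM with scramble siRNA, at 2629 and 2328 TPM with SETD2 siRNA, and at 3113 and 2886 TPM with hnRNP L siRNA. The log2 fold change against scramble was 0.42 (SE 0.141, limma adjusted p = 0.0927), and 0.25 without scramble replicate 1. The share of RPS15 in the TPM of the 78 large and small subunit genes was 0.858% and 0.904% with scramble siRNA. It was 0.900% and 0.851% with SETD2, and 1.11% and 1.04% with hnRNP L siRNA. RPL11, of the 5S particle, was at 4386 and 4813 TPM, at 5240 and 5392 TPM, and at 5672 and 5635 TPM in the same order, a log2 fold change of 0.30 after hnRNP L depletion (limma adjusted p = 0.146). RPL5, its partner in that particle, had a log2 fold change of 0.11 (limma adjusted p = 0.598). RPL23, which also binds MDM2, had 0.27 (limma adjusted p = 0.167) and is named after its values were seen. These differences without scramble replicate 1 were 0.23 for RPL11, 0.00 for RPL5 and 0.19 for RPL23.

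In the direct comparison of hnRNP L with SETD2 depletion, 0 of 84 members were called higher and 0 lower, where 2.15% of all tested genes were called higher and 4.69% lower. At an adjusted p under 0.05 without the fold change 2 members were lower, RPS27L and RPL22L1 (background 7.99%), and 0 were higher (background 2.77%). An unadjusted p under 0.05 was reached by 1 member that was higher and 4 that were lower, where the backgrounds were 7.71% and 20.8%. The median log2 difference was 0.00 for the members and -0.10 for all tested genes. The hnRNP L libraries were both above both SETD2 libraries for 18 members (21.4%, background 18.6%) and both below for 26 (31.0%, background 41.2%). By class the median was 0.03 for the large subunit, -0.02 for the small subunit and -0.13 for the paralogs. The log2 differences of this comparison do not use the scramble libraries, but the spread behind its p-values was estimated over all 6 libraries. RPL22L1 had a log2 difference of -0.41 (SE 0.102, limma adjusted p = 0.0376, and 0.0392 with only the 2 groups fitted). Its limma adjusted p was under 0.05 in 8 of 19 alternatives. It was 0.126 with median-ratio scaling and 0.0875 with quantile normalization. Omitting any 1 SETD2 or hnRNP L library also took it above 0.05, with log2 differences from -0.51 to -0.32.

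RPS27L is a paralog of RPS27 that is known to respond to DNA damage. It was at 36.14 and 35.97 TPM with scramble siRNA, at 54.5 and 47.7 TPM with SETD2 siRNA, and at 37.6 and 32.1 TPM with hnRNP L siRNA. Both SETD2 libraries were above the other 4. The log2 fold change after SETD2 depletion was 0.49 (SE 0.116, limma adjusted p = 0.186), and 0.50 without scramble replicate 1. Between hnRNP L and SETD2 depletion it was -0.55 (SE 0.116, limma adjusted p = 0.0223, 95% interval -0.81 to -0.28). Over 19 alternatives the latter adjusted p ran from 0.00683 to 0.154 and was under 0.05 in 10. It was lost without any 1 of the SETD2 or hnRNP L libraries, where it ran from 0.0861 to 0.154. RPS27L lies on chromosome 15 from 63125872 to 63158021 (hg38, minus strand) and overlaps LACTB on the other strand. Its window above holds no TOP run.

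Of the listed regulators that also respond to DNA damage, CDKN1A, an inhibitor of the cell cycle, was at 15.7 and 21.0 TPM under scramble siRNA, at 29.4 and 26.5 TPM under SETD2 siRNA and at 11.7 and 12.6 TPM under hnRNP L siRNA. MDM2, a ubiquitin ligase, was at 46.4 and 48.6 TPM, at 57.8 and 47.4 TPM, and at 28.8 and 29.3 TPM. Between hnRNP L and SETD2 depletion both were called lower, with log2 differences of -1.17 for CDKN1A (limma adjusted p = 0.00401) and -0.84 for MDM2 (limma adjusted p = 0.00538). After SETD2 depletion CDKN1A had a log2 fold change of 0.60 (limma adjusted p = 0.194). It was 0.40 without scramble replicate 1 and 0.81 without scramble replicate 2.

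**Figure D4:**
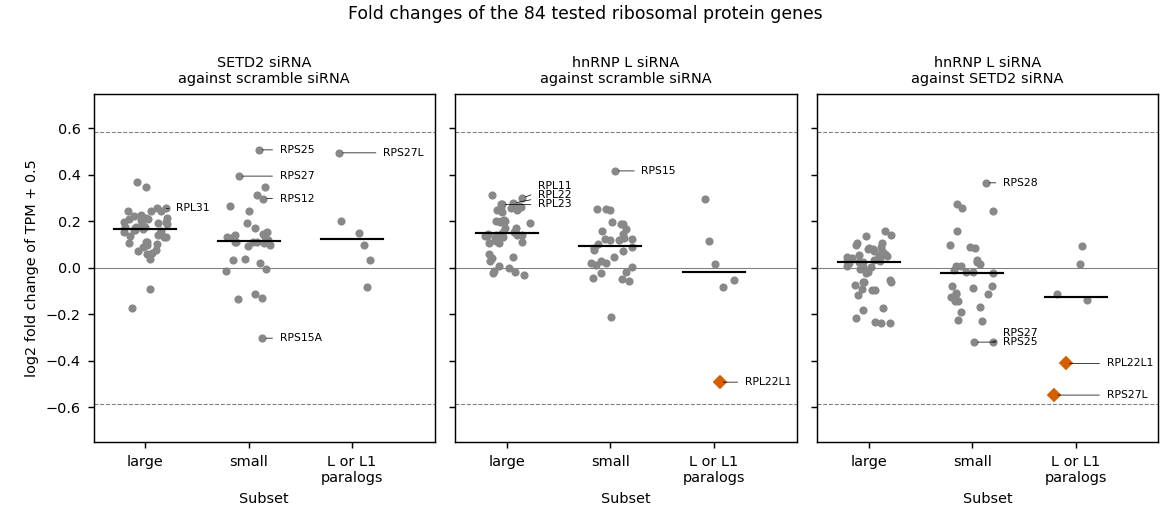
log2 fold change of TPM + 0.5 (vertical axis) of the 84 tested members by subset (horizontal axis) in the 3 comparisons. Grey circles have an adjusted p of 0.05 or more, orange diamonds a lower one, bars are medians, dashed lines mark 1.5-fold, and symbols are given for members with an unadjusted p under 0.05. The orange diamonds are paralogs, RPL22L1 in both comparisons of hnRNP L depletion and RPS27L in the direct one.

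RPS28, of the small subunit, had the largest positive difference between hnRNP L and SETD2 depletion. It was at 778 and 1053 TPM with scramble siRNA, at 865 and 812 TPM with SETD2 siRNA, and at 1125 and 1037 TPM with hnRNP L siRNA. The log2 difference was 0.37 (SE 0.146, limma adjusted p = 0.140), and the gene overlaps NDUFA7 on the other strand. The scramble libraries of RPS28 spanned most of the range of the other 4. The stalk genes, whose proteins recruit the translation factors, had log2 differences of -0.24 for RPLP0 and RPLP2 and 0.01 for RPLP1 in this comparison, none with a limma adjusted p under 0.281. RPS6, the substrate of the S6 kinases, was at 3164 and 3761 TPM with scramble siRNA, at 3752 and 3341 TPM with SETD2 siRNA, and at 3565 and 3430 TPM with hnRNP L siRNA, so that its groups overlapped. RPS19 had a log2 fold change of 0.35 after SETD2 depletion (limma adjusted p = 0.387) and RPS14 had -0.13 (limma adjusted p = 0.704), both genes being known from inherited or acquired anemias. Without scramble replicate 1 the values were 0.15 for RPS19 and -0.30 for RPS14, and without scramble replicate 2 they were 0.55 and 0.03.

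**Figure D5:**
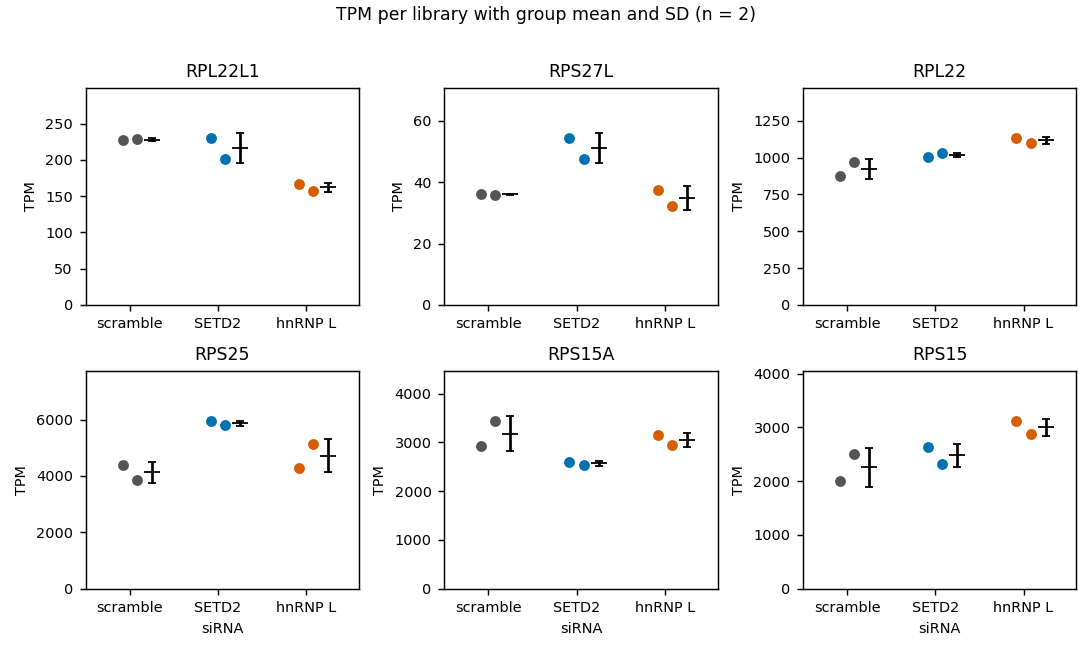
TPM (vertical axes, starting at 0) of 6 members in each library (points) by siRNA (horizontal axis), with the group mean and SD of n = 2 libraries (black). RPL22L1 is lowest in both hnRNP L libraries at 166 and 158 TPM, RPS27L and RPS25 are highest in both SETD2 libraries, and RPS15A is lowest there.

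Genes that work with the ribosomal proteins were listed in groups. The 78 mitochondrial ribosomal protein genes, which are nuclear genes of a separate family, had a median log2 fold change of 0.14 under SETD2 siRNA and of 0.11 under hnRNP L siRNA, beside 0.15 and 0.13 for the cytosolic family. Without scramble replicate 1 these medians were 0.02 and -0.02, and without scramble replicate 2 they were 0.24 and 0.23. After SETD2 depletion 0 of the 78 had an adjusted p under 0.05, and after hnRNP L depletion 6 were higher (background 2.72%) and 1, MRPL40, was lower (background 8.48%). The count was 1 higher and 1 lower without scramble replicate 1, and without scramble replicate 2 it was 14 higher and 0 lower. MRPS25 was the 1 of them called, at 55.04 and 64.56 TPM under scramble siRNA, 67.5 and 68.9 TPM under SETD2 siRNA and 95.1 and 92.7 TPM under hnRNP L siRNA (log2 fold change 0.65, limma adjusted p = 0.00957). Its log2 fold change without scramble replicate 1 was 0.54 (limma adjusted p = 0.0446), short of 1.5-fold. The 17 other TOP mRNAs of the translation machinery, such as EEF1A1, had medians of 0.17 after SETD2 and 0.09 after hnRNP L depletion, and of 0.06 and 0.00 without scramble replicate 1. Of these mRNAs 0 passed in any comparison with all 6 libraries in the fit. RACK1 did not pass either.

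The 35 factors of rRNA synthesis and ribosome assembly had a median of 0.10 after both depletions, and of 0.01 under SETD2 siRNA and 0.05 under hnRNP L siRNA without scramble replicate 1. After SETD2 depletion 0 of them had an adjusted p under 0.05. TAF1D, a subunit of the RNA polymerase I factor SL1, was at 169.9 and 169.5 TPM under scramble siRNA, 136 and 139 TPM under SETD2 siRNA and 213 and 222 TPM under hnRNP L siRNA. It had a log2 fold change of 0.36 after hnRNP L depletion (limma adjusted p = 0.0380, and 0.0721 without scramble replicate 1) and was called higher in the direct comparison, at 0.66 (limma adjusted p = 0.00507). In that comparison DKC1, of the pseudouridylation complex, and NCL, or nucleolin, had higher levels at an adjusted p under 0.05 (0.37 and 0.39 on the log2 scale), and GAR1 and RRS1 had lower ones (-0.37 and -0.44). Of the 16 regulators, MYC, which activates ribosomal protein genes, had a log2 fold change of 0.41 after hnRNP L depletion (limma adjusted p = 0.0412, and 0.121 without scramble replicate 1), while CDKN1A and MDM2 were lower. The adjusted p of MDM2 was 0.0560 without scramble replicate 1, and that of CDKN1A was 0.131 without scramble replicate 2. LARP1 and the mTOR genes on that list did not pass in any comparison with all 6 libraries in the fit.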

How the data were processed

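RNA was ribodepleted and enriched for polyA RNA, and paired reads were aligned to hg38 with Ensembl 96 gene models using STAR 2.6.1c. The authors deposited TPM per gene from RSEM 1.3.0, in which pseudogenes are rows of their own and read counts are not kept, so the counting error is unknown. Levels of ribosomal RNA were not analysed here. The H3K36me3 samples were not analysed here. The study describes its replicates as biologically independent, and p-values rest on the spread between 2 libraries per siRNA.

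Genes with a mean of at least 0.5 TPM (16300) were tested on log2(TPM + 0.5), which understates changes of low genes, with limma 3.58.1 in R 4.3.3, 1 mean per siRNA over 6 libraries, a variance trend (prior degrees of freedom 5.74) and Benjamini-Hochberg adjustment. A call needed an adjusted p under 0.05 together with a change of more than 1.5-fold, as in the study. The fit was tested on simulated data. Start sites came from RefSeq (GRCh38.p14), positions and transcripts from GENCODE 44. Start sites of 17 members were not in the table. Python 3.11.15, pandas 2.3.3, NumPy 2.4.6, SciPy 1.17.1 and Matplotlib 3.10.9 were used.

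The members, lists and tests were chosen with earlier results of these data known. The members named were the 8 highest and 5 lowest, the 6 largest differences of each comparison and direction, the paralogs with the genes they are named after, a preset group of 16 that includes RPL5, RPL11 and RPS6, and called list genes, of which some are not reported here. The settings varied were the pseudocount (1 or 0.1), the filter (none or a mean of at least 1 TPM), the biotypes kept (lncRNA and protein-coding), the scaling (median-ratio, quantile, totals without mitochondrially encoded genes or without the members), the sum of a member with its pseudogenes, a fit of 2 groups, no variance trend, the fold-change limit (none or 2), the libraries (1 left out at a time) and a replicate block.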

Additional observations from a re-analysis of the deposited data

How the results depend on the processing

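The count of members called was 0 in each direction of each comparison and stayed so under the alternatives run, except as follows. With no fold-change cut-off it was 1 lower after hnRNP L depletion (RPL22L1) and 2 lower between hnRNP L and SETD2 depletion (RPL22L1 and RPS27L). With the family total set equal in every library, an alternative chosen after seeing the data, RPL22L1 was called lower after hnRNP L depletion, a count of 1, and the medians of the members were -0.0019 under SETD2 siRNA and -0.0025 under hnRNP L siRNA, which follows from the construction. The medians of all genes were then -0.12 and -0.21. With 1 library left out at a time, the median of the members ran from 0.0206 to 0.276 after SETD2 depletion, from -0.0025 (without scramble replicate 1) to 0.2551 (without scramble replicate 2) after hnRNP L depletion, and from -0.0753 (without SETD2 replicate 3) to 0.0525 in the direct comparison. Median-ratio scaling moved the direct median to 0.1102 and that of all genes from -0.10 to 0.00, and it turned the split of calls of all genes after hnRNP L depletion from 286 higher and 816 lower to 430 and 517. Relative to the median of all genes, the members lay 0.22 higher after hnRNP L depletion in the reported fit, 0.23 with median-ratio scaling, 0.21 without mitochondrially encoded genes and 0.01 after quantile normalization. The cause of these moves was not tested.

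Scramble and hnRNP L siRNA share the replicate numbers 1 and 2, but same-numbered libraries did not deviate together (r = -0.126 over 16300 genes), so the numbers were not taken as pairs. With a replicate block 210 genes were called higher and 505 lower after hnRNP L depletion, 0 of them members, and with crossed numbers 413 and 993, again 0 members. Without the fold change, RPL22L1 lost its adjusted p under 0.05 with the block (0.0556), and 1 member was lower with crossed numbers. The log2 fold changes of the 41 named members that were tested changed sign in 138 of 2419 values under alternatives, none of them past the threshold on either side.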

Other observations

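Of 1146 pseudogene rows of the members, 200 had a mean of at least 0.5 TPM, and together the rows took 0.748% to 0.941% of TPM in each library. RPS2P5, RPL39P3, RPL22P1 and RPL23AP42 each averaged above 1000 TPM, as high as many of the genes themselves. Of the 75-base windows of these pseudogenes, 43.4%, 100%, 65.2% and 73.8% occurred in a transcript of RPS2, RPL39, RPL22 and RPL23A. The pseudogenes of RPL22 summed to 111% of its level and those of RPL23A to 50.5%, so the split of reads between these genes and their copies is uncertain.

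RPL39P3 was at 1321 and 1461 TPM with scramble siRNA, at 2121 and 1796 TPM with SETD2 siRNA, and at 1236 and 1276 TPM with hnRNP L siRNA. Its log2 fold change after SETD2 depletion was 0.49 (limma adjusted p = 0.196), and 0.42 without scramble replicate 1. The direct comparison gave -0.64 (limma adjusted p = 0.0156). RPL39 itself had -0.09 after SETD2 depletion, and -0.16 without scramble replicate 1. RPL39 summed with its pseudogenes lay between 6656 and 7731 TPM with overlapping groups. All windows of this pseudogene occur in RPL39, so its row cannot be read as transcription of the pseudogene.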
